A study of Mus musculus and Rattus norvegicus with 28 samples.

Results

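The RNA of mouse cardiomyocytes at postnatal day 3 (P3) was compared with the RNA of cardiomyocytes at embryonic day 18.5 (E18.5), the last days before birth. The comparison used 4 of the 28 samples of the series, 2 RNA-seq libraries at each time point, and 2 libraries each at postnatal days 1 and 7 (P1 and P7) entered the same fit. All cells came from the left ventricles of wild-type C57BL/6 mice of both sexes, and neither group carried an allele or received an agent. The ventricles were digested in cold trypsin and then in collagenase. The suspension was plated for a time so that attached cells could be discarded, so the cells were enriched for cardiomyocytes and not sorted. By staining for cardiac troponin T, the study reported high purity, also for cells of P7. The labels do not say whether the 2 libraries of a time point came from separate litters, so the p-values measure the spread between these libraries. Expression was read as FPKM, fragments scaled to transcript length and to the aligned fragments of a library, summed over the transcripts of a gene. Of the 55450 genes in the files, 13979 reached 1 FPKM in at least 2 of the 8 libraries and were tested on the scale log2(FPKM + 1). Changes given without a unit are log2 fold changes of P3 over E18.5 on that scale, ± the standard error (SE).

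Around birth, cardiomyocytes pass from a fetal program, with slow myosin and a metabolism based on glucose and lactate, to the adult program, with fast myosin in mice, larger mitochondria and oxidation of fatty acids. They also go through a last round of DNA synthesis and leave the cell cycle. The ventricle meanwhile gains fibroblasts and extracellular matrix and loses fetal growth signals, and the whole animal changes from placental to pulmonary oxygen and to milk.

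Aligned reads came to 29.3 M and 34.1 M in the E18.5 libraries and to 37.4 M and 34.8 M in the P3 libraries. The 2 libraries of a time point ranked the tested genes alike, with a Spearman correlation across genes of 0.968 at E18.5 and 0.983 at P3. Cardiomyocyte markers were present throughout, and the FPKM of 16 of them summed to 31420.0 and 40656 at E18.5 and 10496 and 8430.4 at P3. Fibroblast markers summed to 591 and 600.5 FPKM and then 1639 and 1656 FPKM, and markers of smooth muscle and pericytes to 431 and 559.6 and then 1139 and 1302 FPKM. Macrophage markers summed to 79.4 and 72.3 and then 233 and 182 FPKM, and endothelial markers to 797 and 467 and then 508 and 598 FPKM. The sum for cardiomyocytes was thus lower in both P3 libraries, the sums for fibroblasts, mural cells and macrophages were higher in both, and the endothelial sums overlapped. A sum is carried by its most abundant genes, and the members of a list did not all move with it. In the tests below 4 of 12 macrophage markers rose and 0 fell, with a median log2 fold change of −0.095. Of 10 smooth muscle and pericyte markers 2 rose and 3 fell. Fewer cells of a type and less RNA per cell cannot be told apart in such bulk samples, and the part of these sums in the results that follow was not tested.

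**Figure D1:**
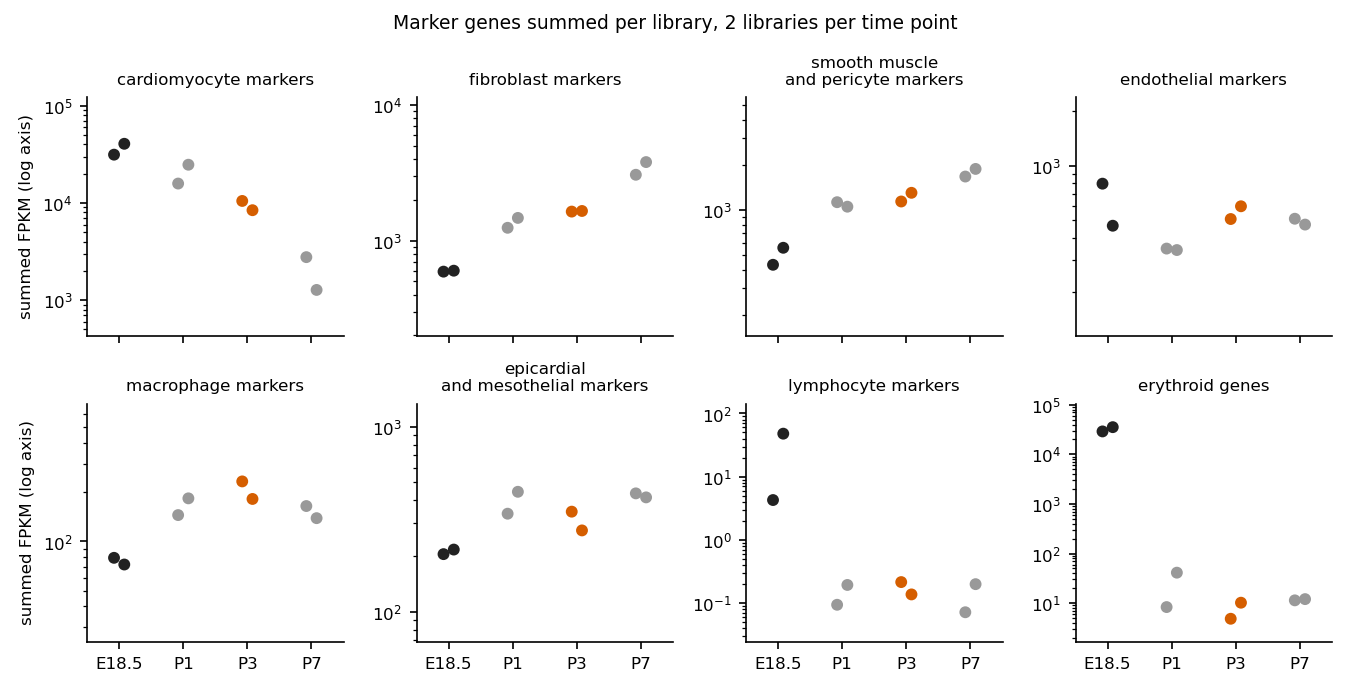
Summed FPKM of the marker genes of 8 cell types (log axis) in each of the 8 libraries, with 1 point per library and time points in order from E18.5 to P7. The erythroid sum was 29056 and 35401 in the E18.5 libraries and 4.84 and 10.2 in the P3 libraries, while the fibroblast sum was 591 and 600.5 at E18.5 and 1639 and 1656 at P3.

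Red cell genes took 5.47% and 6.42% of TPM, a scale with the same total in every library, at E18.5 and 0.00105% and 0.00228% at P3. At E18.5 the top 10 genes made up 20.3% and 20.2% of TPM, and at P3 8.84% and 8.43%, so the composition of the RNA differed between the groups. The second E18.5 library also stood apart, since 25 genes in it exceeded the highest of the other 7 libraries more than 4-fold, against 2 in the first E18.5 library and 0 to 3 in the others. These included T cell genes and a liver gene, with Trbc2, a T cell receptor constant region, at 57.1 FPKM and Alb, serum albumin, at 52.9 FPKM, both under 1 FPKM in every other library. The summed lymphocyte markers were 47.9 FPKM there, 4.27 FPKM in the first E18.5 library and 0.215 and 0.137 FPKM at P3. The 13 genes of the mitochondrial genome that were listed stood at 0 in all libraries and could not be compared.

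In all, 3055 genes were called different between P3 and E18.5 by limma, at an adjusted p under 0.05 and a change of more than 2-fold, which is 21.9% of the genes tested. Of these, 1814 were higher at P3 (13% of tested genes) and 1241 were lower (8.88%), and 384 rose and 228 fell at least 4-fold. The libraries of the 2 groups did not overlap for any called gene, but this was so for 74.8% of all tested genes. The median tested gene stood 0.16 higher at P3 on the log2 scale. With median-of-ratios size factors 1367 genes were higher and 1626 lower, and the median was −0.02, whereas with TPM 3068 were higher and 1056 lower and the median was 0.41. The share of called genes that were higher was therefore 59.4% as deposited, 45.7% with size factors and 74.4% with TPM. The direction of each gene called here was the same under every scaling, and the smallest two-sided p of an exact permutation test of 2 against 2 libraries is 0.333.

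**Figure D2:**
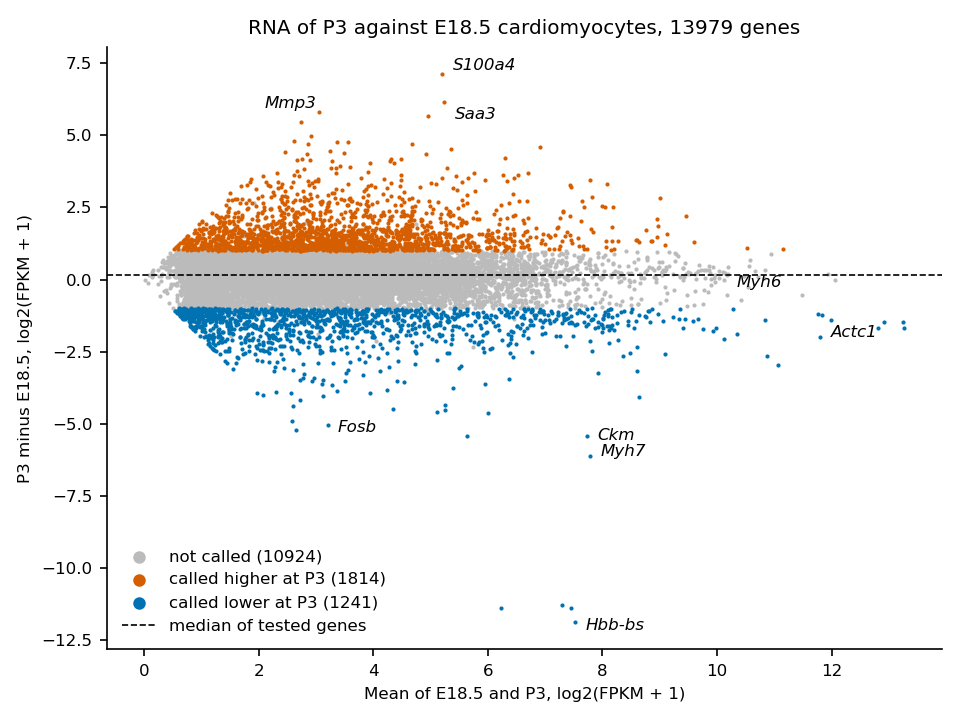
Log2 fold change of P3 over E18.5 on the log2(FPKM + 1) scale (vertical axis) against the mean of both groups on the same scale (horizontal axis) for the 13979 tested genes, with the 1814 genes called higher and the 1241 called lower in colour and the horizontal line at the median of 0.16. The 4 adult globin genes lie apart at the bottom, and S100a4 and Saa3 lie highest among the genes called higher.

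For most called genes the P1 and P7 libraries lay on the same side of the fetal libraries as those of P3. Both E18.5 libraries lay outside the range of all 6 postnatal libraries for 96.3% of the genes called higher, for 91.6% of those called lower, and for 44.4% of those not called. The E18.5 and P3 libraries of a called gene never overlapped, so only P1 and P7 could break this pattern. The difference from uncalled genes was therefore partly set by the call itself. The contrast of P1 with E18.5 called 2258 genes (16.2% of those tested) and that of P7 3870 genes (27.7%), and these contrasts share the E18.5 libraries with the one at P3. Between P1 and P3 limma called 2 genes, both higher at P3 and among them Slc36a1, an amino acid transporter, and from P3 to P7 it called 189 genes higher (1.35%) and 307 lower (2.2%), 496 in all (3.55%).

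S100a4 and Saa3 had the largest rises. S100a4 (chr3:90603771-90606045, plus strand, mm10), a calcium-binding protein of fibroblasts and migrating cells, stood at 2.19 and 2.07 FPKM at E18.5 and 409 and 455 FPKM at P3. Its log2 fold change was 7.11 ± 0.26 (SE; adjusted p = 6.29e-06), and the values at P1 were 364 and 189 FPKM. Saa3, an acute phase serum amyloid, stood at 5.43 and 2.14 FPKM at E18.5 and 352 and 288 FPKM at P3, a log2 fold change of 6.15 ± 0.41 (adjusted p = 3.79e-05). Both genes were low in both fetal libraries and high in every later one. Mmp3, a matrix metalloproteinase, stood at 0.151 and 0.0649 FPKM at E18.5 and 58.8 and 62.7 FPKM at P3 (log2 fold change 5.801 ± 0.23), and Cxcl5, a chemokine for neutrophils, at 4.47 and 2.43 FPKM at E18.5 and 201 and 245 FPKM at P3 (5.68 ± 0.31). Both rose again from P3 to P7, by 2.99 and 1.996 on the log2 scale. Cck, the peptide hormone cholecystokinin, was listed at 0 in both E18.5 libraries and stood at 43.3 and 43.4 FPKM at P3. The other 5 of the 10 largest rises were Col8a1, a short-chain collagen (4.96), Prkar2b, a regulatory subunit of protein kinase A (4.76), Mmp12, the macrophage metalloelastase (4.71), Spp1, the matrix protein osteopontin (4.71), and S100a6, another S100 protein (4.58), all as log2 fold changes. Mmp3, Cck, Col8a1 and Mmp12 were under 1 FPKM in both E18.5 libraries and were tested only through their postnatal level.

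The genes with the largest fall were those of red cells, a slow myosin, muscle creatine kinase and stress-induced genes. Hbb-bs, an adult beta globin, stood at 10045 and 12490.5 FPKM at E18.5 and 1.71 and 2.33 FPKM at P3, a log2 fold change of −11.86 ± 0.41 (adjusted p = 6.29e-06). Hbb-bt, Hba-a1 and Hba-a2 had log2 fold changes of −11.39, −11.396 and −11.28, although reads shared between near-identical globin genes make the split among them uncertain. All 8 erythroid genes tested fell, though 4 of them were under 1 FPKM in every postnatal library and were tested only through their level at E18.5, among them Alas2, which starts haem synthesis in red cells (−5.23). Myh7 (chr14:54970684-54994626, minus strand), the slow beta myosin heavy chain of the fetal mouse ventricle, stood at 1620.0 and 2078 FPKM at E18.5 and 23.7 and 26.9 FPKM at P3. The log2 fold change of Myh7 was −6.13 ± 0.31 (adjusted p = 1.55e-05), the largest fall of any gene outside the erythroid list. Ckm, the creatine kinase of muscle, stood at 1215 and 1566 FPKM at E18.5 and 39.5 and 24.8 FPKM at P3, a log2 fold change of −5.42 ± 0.50. Hspa1a and Hspa1b, which code for inducible heat shock proteins and share near-identical sequence, stood at 221 and 483 FPKM at E18.5 and 5.799 and 7.48 FPKM at P3 and at 217 and 475 FPKM at E18.5 and 10.05 and 13.99 FPKM at P3. Fosb, an AP1 subunit, stood at 41.5 and 65.4 FPKM at E18.5 and 0.309 and 0.9503 FPKM at P3 (−5.05). For these genes every P3 library lay far below both E18.5 libraries.

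**Figure D3:**
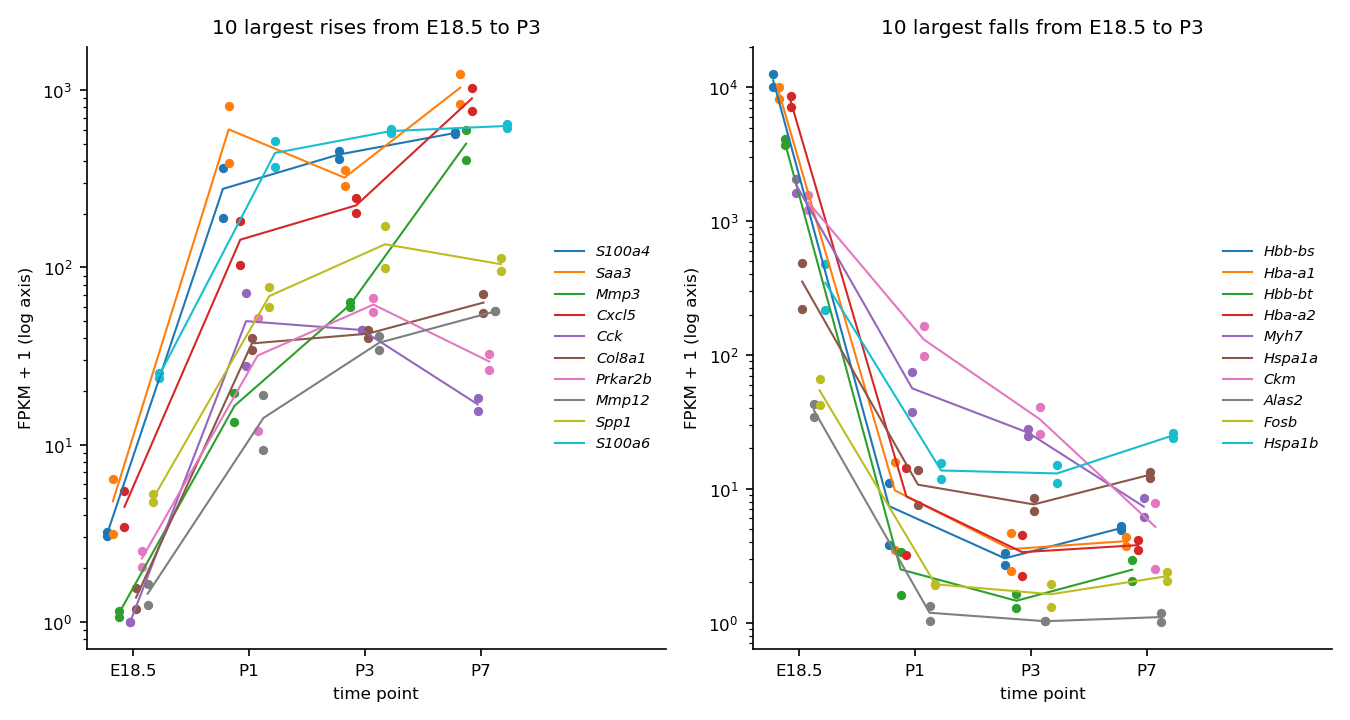
FPKM + 1 (log axis) of the 10 genes with the largest rise (left) and the 10 with the largest fall (right) from E18.5 to P3 in the 8 libraries, with 1 point per library and a line through the mean of each time point. The genes that rose were low in both E18.5 libraries and high from P1 on, and Myh7, at 1620.0 and 2078 FPKM at E18.5, stood at 36.6 and 73.9 FPKM at P1 and 7.51 and 5.200 FPKM at P7.

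The 10 most abundant genes that rose had varied roles. Fth1, the ferritin heavy chain, stood at 924 and 1084 FPKM at E18.5 and 2192 and 2091 FPKM at P3 (log2 fold change 1.097), and Actb, cytoplasmic beta actin, at 254 and 270.1 FPKM at E18.5 and 897 and 1019 FPKM at P3 (1.87). B2m, the light chain of class I antigen-presenting molecules, stood at 369 and 288 FPKM at E18.5 and 1637 and 1394 FPKM at P3 (2.21). As for every called gene, and for 74.8% of all tested genes, the groups did not overlap for these 3 genes. Lgals1, a galectin, Sparc, a collagen-binding matrix protein, S100a11, an S100 protein, Cst3, a protease inhibitor, Clu, a secreted chaperone, Pfn1, which binds actin monomers, and Tuba1b, an alpha tubulin, rose by 1.21 to 3.296. Of the 10, Fth1 lost its call in 2 of 14 alternative settings and Pfn1 in 1. Outside the globins, the abundant genes that fell were Actc1, cardiac actin, Tnnt2, cardiac troponin T, Tnnc1, troponin C, Myl2 and Myl3, the ventricular myosin light chains, and Atp5b, a subunit of ATP synthase. Actc1 went from 5864 and 8565 to 1843 and 1753 FPKM, and Myl2 from 5267 and 6835 to 900.2 and 650.5 FPKM. Both were still among the abundant transcripts at P3, and Actc1, Tnnt2, Tnnc1, Myl2 and Myl3 fell further from P3 to P7. Tnnt2 and Tnnc1 lost their call in 3 of 14 alternative settings each.

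Of 16 cardiomyocyte markers 14 fell at P3, with a median log2 fold change of −1.83 beside 0.16 for all tested genes, and Myh6 and Nppa were not called. Of the 14 thick filament genes tested, 10 fell and 0 rose, with a median of −1.84. Myh6, the fast alpha myosin heavy chain of the adult mouse heart, stood at 1243 and 1548 FPKM at E18.5 and 853 and 1062 FPKM at P3, and Myl4, the atrial and fetal light chain, fell by 2.48. Myh7b, a slow-tonic myosin that hosts a microRNA in an intron, fell from 31.3 and 37.8 to 0.872 and 1.46 FPKM. One member, Myl9, is a light chain of smooth muscle and non-muscle myosin and fell by 1.76. Of 19 genes of the thin filament and Z-disc 13 fell and 1 rose, with a median of −1.79. The 1 that rose was Tpm2, beta tropomyosin, which went from 33.1 and 31.02 to 91.2 and 105 FPKM. Tnni1, the fetal slow skeletal troponin I, went from 1456 and 1832 to 111 and 83.9 FPKM (−4.07 ± 0.35), and the adult Tnni3 from 1590.2 and 2089.6 to 619 and 446 FPKM (−1.79 ± 0.40). Acta1, skeletal actin, fell by 3.31 and Csrp3, a Z-disc LIM protein, fell by 3.25. Without the second E18.5 library 8 thin filament genes and 9 of the 16 cardiomyocyte markers were called lower, in place of 13 and 14.

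Ratios between related genes within a library are given as well, as a description of pairs that were chosen after their values had been seen. The FPKM ratio of Myh6 to Myh7 was 0.767 and 0.745 at E18.5 and 36.0 and 39.6 at P3, and that of Tnni3 to Tnni1 was 1.09 and 1.14 at E18.5 and 5.57 and 5.32 at P3. In 10 other pairs of related genes the ratio was also higher in both P3 libraries than in both E18.5 libraries. Eno1 over Eno3 went from 1.20 and 1.07 to 4.85 and 6.58, Pgam1 over Pgam2 from 0.309 and 0.274 to 2.03 and 2.66, and Ckb over Ckm from 0.161 and 0.169 to 1.95 and 3.31. Ldha over Ldhb, the lactate dehydrogenase subunits of anaerobic and aerobic tissue, went from 1.08 and 1.01 to 4.55 and 4.77. Cpt1a over Cpt1b, the liver and muscle carnitine palmitoyltransferases, went from 0.0842 and 0.0783 to 0.722 and 0.751. Cox6a1 over Cox6a2, Cox7a2 over Cox7a1 and Cox8a over Cox8b, the ubiquitous over the muscle isoforms of cytochrome oxidase subunits, Pfkl over Pfkm, and Actc1 over Acta1 moved in the same direction. The summed cardiomyocyte markers were themselves lower at P3. In pairs of a ubiquitous over a muscle form, a lower share of cardiomyocyte RNA would raise the ratio by itself. For these pairs that share and a change within cardiomyocytes cannot be told apart.

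**Figure D4:**
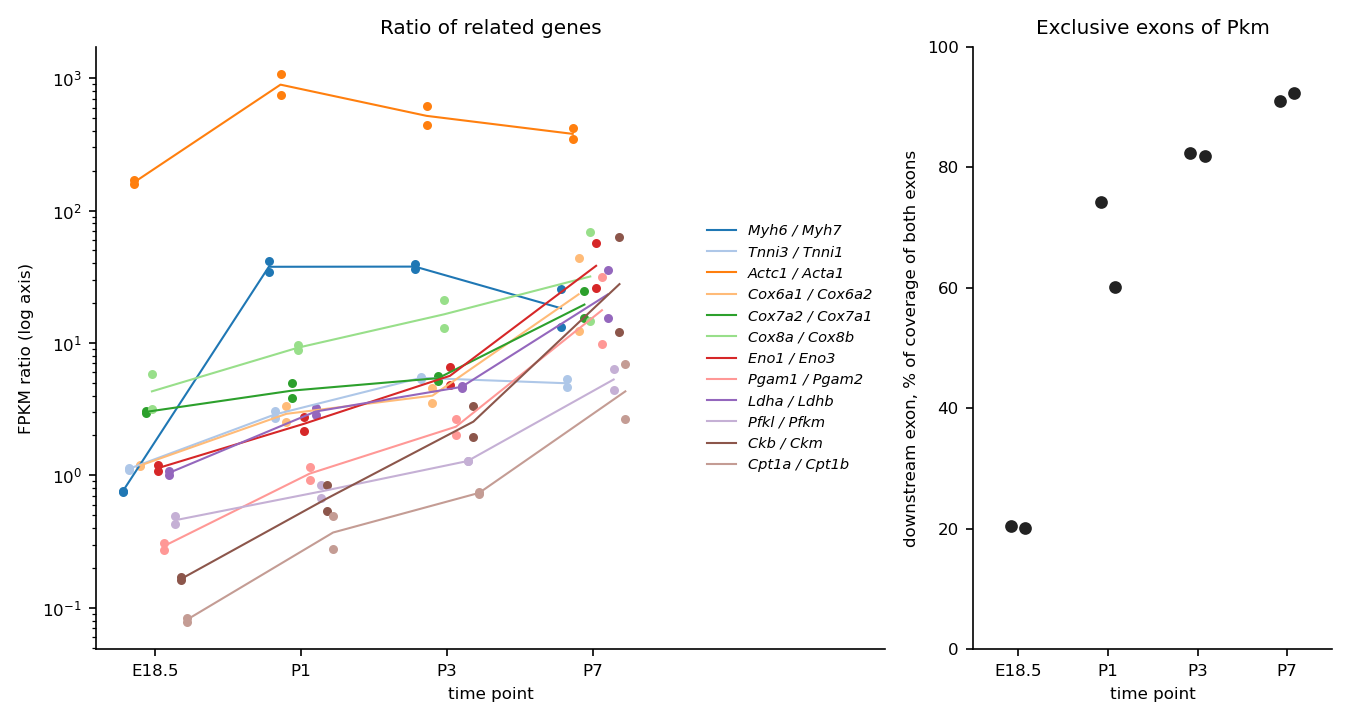
Left, FPKM ratio (log axis) of 12 pairs of related genes in the 8 libraries, with 1 point per library and a line through the geometric mean of each time point. Right, share of the coverage of the 2 exclusive Pkm exons that fell on the downstream exon, in percent, which was 20.4 and 20.1 at E18.5 and 82.4 and 81.8 at P3.

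Of 16 genes of calcium handling, 9 fell and 0 rose (median −1.16), and without the second E18.5 library 5 fell. Ryr2, the calcium release channel, went from 21.05 and 27.3 to 6.93 and 9.09 FPKM, Casq2, the calcium buffer of the sarcoplasmic reticulum, from 151 and 239 to 52.02 and 76.5 FPKM, and Pln, the inhibitor of the calcium pump, from 248 and 242 to 114 and 99.1 FPKM. The pump itself, Atp2a2, was not called, at 614 and 754 FPKM at E18.5 and 374 and 404 FPKM at P3. Of 17 channel and gap junction genes 5 fell and 2 rose. Kcnip2, a subunit of the transient outward potassium current, fell from 21.9 and 38.8 to 1.35 and 1.51 FPKM. Of 8 natriuretic and hypertrophy genes 3 fell: Myh7, Acta1 and Nppb, the B-type natriuretic peptide (−2.29). Nppa, the atrial peptide, stood at 859.6 and 1559.9 FPKM at E18.5 and 1012 and 407 FPKM at P3 and was not called.

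Among 17 cardiac transcription factors 7 fell and 2 rose (median −0.45). Those that fell were Hey2, a Notch target of the compact ventricular wall, Hopx, Hand1, Irx4, a ventricular factor, Myocd, a coactivator of SRF, Nkx2-5 and Prox1. Hey2 went from 16.6 and 19.1 to 1.46 and 1.54 FPKM and Nkx2-5 from 93.1 and 109 to 46.5 and 38.97 FPKM. Gata5 (1.05) and Hand2 (1.02) rose just past the limit of 1. Gata5 was under 1 FPKM in both E18.5 libraries and was tested only through its postnatal level. Gata4, Tbx5 and Tbx20 were not called, at log2 fold changes of −0.56, −0.13 and 0.23. In the list of MEF2 factors, which activate muscle genes, and the class IIa deacetylases that hold them in check, Hdac5 and Hdac9 fell (−1.24 and −1.48) and none of 7 rose. Mef2a, Mef2c and Mef2d were not called, at −0.36, −0.81 and −0.72.

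The nuclear genes of the respiratory chain were lower at P3 nearly throughout. Of 31 tested 28 fell and 0 rose, with a median of −1.38, and 22 fell with TPM and 30 with size factors. Atp5b stood at 2764 and 3196 FPKM at E18.5 and 1180.2 and 1059.7 FPKM at P3, Sdhb, of complex II, at 419 and 518 FPKM at E18.5 and 151 and 135 FPKM at P3, and Ndufs1, of complex I, at 171 and 194 FPKM at E18.5 and 59.3 and 53.9 FPKM at P3. In each the P3 libraries lay below both E18.5 libraries, and no called gene overlapped between groups. The 3 not called were Cox6a1, Cox8a and Ndufa4, at −0.92, −0.47 and −0.87. The largest falls were those of muscle isoforms, Cox6a2 (−2.67), Cox8b (−2.36) and Cox7a1 (−2.18).

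Of 25 genes of fatty acid use 19 fell and 1 rose, with a median of −1.52. Cpt1b, which admits fatty acids to muscle mitochondria, went from 129.7 and 162 to 20.2 and 30.2 FPKM (−2.502 ± 0.34), and Fabp3, the fatty acid binding protein of heart, from 1217 and 1474 to 223 and 219 FPKM (−2.596 ± 0.35). Pdk4, the kinase that shuts off pyruvate dehydrogenase, went from 58.1 and 54.7 to 4.57 and 10.7 FPKM, and Acadm, the medium-chain dehydrogenase, from 219.8 and 258 to 64.4 and 61.6 FPKM. Plin2, the coat protein of lipid droplets, was the 1 that rose, from 31.6 and 26.9 to 63.6 and 82.7 FPKM. Of 12 regulators of metabolism 3 fell, Ppargc1a, Ppargc1b and Esrrg, drivers of mitochondrial genes (−1.26, −1.21 and −1.08), and Ppard rose (1.02). Of 5 genes of ketone use, Acat1 and Slc16a1, a lactate and ketone transporter, fell (−1.75 and −1.11), and Bdh1 and Oxct1 were not called (−0.04 and −0.41). In the creatine system Ckm and Ckb fell, and Gatm, which starts creatine synthesis, rose by 1.504, among 6 tested.

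Of 20 genes of glucose uptake and glycolysis 8 fell and 0 rose (median −0.71). They were Ldhb, Aldoc, Pgam2, Pfkm, Eno3, Tpi1, Pfkp and Aldoa, from −2.53 for Ldhb to −1.01 for Aldoa. The 8 include the muscle forms Pgam2, Pfkm and Eno3, while their ubiquitous counterparts Pgam1, Pfkl and Eno1 were not called. Slc2a1, the fetal glucose transporter, stood at 50.5 and 37.1 FPKM at E18.5 and 48.5 and 47.96 FPKM at P3, and Slc2a4, the insulin-dependent one, at 17.8 and 25.4 FPKM at E18.5 and 15.6 and 13.5 FPKM at P3, and neither was called.

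Pkm, pyruvate kinase of muscle and most tissues (chr9:59656368-59679375, plus strand), was not called in its sum, at 771 and 888 FPKM at E18.5 and 1043 and 1025 FPKM at P3, but the form of its RNA changed. The gene holds a pair of exclusive exons of 167 bases each on chromosome 9, and a transcript uses one or the other. The upstream exon gives the PKM1 form of adult muscle and the downstream exon the PKM2 form of embryonic and dividing cells. They are shown because reads can be told apart only where the exons differ. Both were read from the RefSeq genome GRCm38.p6, and capitals mark the bases that differ between the exons aligned end to end, where 103 of 167 bases (61.7%) are identical.
Pkm upstream exon (chr9:59675029-59675195, plus strand): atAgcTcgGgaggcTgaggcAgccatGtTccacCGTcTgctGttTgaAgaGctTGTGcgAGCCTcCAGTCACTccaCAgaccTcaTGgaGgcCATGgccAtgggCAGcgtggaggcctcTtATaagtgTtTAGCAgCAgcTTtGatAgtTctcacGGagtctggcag
Pkm downstream exon (chr9:59675568-59675734, plus strand): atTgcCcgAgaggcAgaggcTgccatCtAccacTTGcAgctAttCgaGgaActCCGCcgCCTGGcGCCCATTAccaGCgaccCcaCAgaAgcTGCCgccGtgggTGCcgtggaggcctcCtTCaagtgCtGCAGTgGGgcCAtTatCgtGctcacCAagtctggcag

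The downstream exon took 20.4% and 20.1% of the coverage of the pair in the E18.5 libraries. Its share was 74.3% and 60.1% in the P1 libraries, 82.4% and 81.8% in the P3 libraries, and 91.0% and 92.3% in those of P7. Both P3 libraries thus lay above both P1 libraries and below both P7 libraries. In shares of the FPKM of the gene, the transcript ENSMUST00000034834.15, which holds the downstream exon, went from 23.4% and 28.6% at E18.5 to 78.7% and 74.3% at P3 (limma on arcsine square root shares, adjusted p = 0.0302). The transcript ENSMUST00000163694.3, with the upstream exon, went from 71.97% and 67.1% to 18.6% and 22.4% (adjusted p = 0.0302). Leaving out any 1 of the 4 libraries ended the call of ENSMUST00000034834.15, with adjusted p between 0.082 and 0.151, while the change stayed between 47.97 and 53.15 percentage points. The summed markers of fibroblasts and of smooth muscle and pericytes were higher in both P3 libraries, and their part in the Pkm shares was not tested.

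Across the genome, 99 of 13122 transcripts tested (0.754%) changed their share of the FPKM of their gene by more than 20 percentage points at an adjusted p under 0.05, in 73 genes. The 6 transcripts with the largest change belonged to Rbpj, the DNA-binding factor of Notch signalling, Actr8, a subunit of the INO80 remodeller, G6pc3, a glucose phosphatase, and Gpx8, a peroxidase of the endoplasmic reticulum. For Rbpj, ENSMUST00000201883.3 held 0% in both E18.5 libraries and 87.3% and 88.5% at P3, while ENSMUST00000113865.4 went from 89.8% and 90.4% to 11.6% and 7.57%. In Actr8, ENSMUST00000224797.1 went from 87.2% and 82.2% to 0% in both P3 libraries, and ENSMUST00000016115.5 from 4.46% and 4.51% to 88.5% and 79.6%. For G6pc3, ENSMUST00000070334.9 went from 0% to 76.5% and 68.9%, and for Gpx8, ENSMUST00000022282.5 from 20.5% and 20.2% to 93.4% and 92.3%. In these 4 genes the P1 and P7 libraries lay with those of P3.

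Transcripts of Tpm2, Flnc and Clta are given as further examples, chosen after their values were seen. Tpm2, which rose in its sum, also changed its form, with ENSMUST00000107914.9 at 13.7% and 23.7% at E18.5 and 82.7% and 76.7% at P3. In Flnc, muscle filamin, ENSMUST00000065090.7 went from 23.8% and 22.3% to 75.2% and 68.3%, and in Clta, a clathrin light chain, ENSMUST00000170241.7 went from 28.0% and 31.5% to 76.8% and 69.5%. Both E18.5 libraries lay outside the range of all 6 postnatal libraries for 82 of the 99 called transcripts (82.8%), beside 24.3% of all transcripts tested. The E18.5 and P3 shares of a called transcript did not overlap, so only P1 and P7 could break this pattern. The difference from all transcripts was therefore partly set by the call itself. For 18 of the 99 (18.2%) both P3 libraries lay outside the range of the other 6 libraries. Without the first P3 library 9 transcripts were called and without the second 18. The calls in Rbpj and Gpx8 held when any 1 of the 4 libraries was left out, ENSMUST00000016115.5 of Actr8 lost its call without the first P3 library (adjusted p = 0.0521), ENSMUST00000070334.9 of G6pc3 without either P3 library (0.0785 and 0.0649), the one named in Tpm2 without either P3 library or the first E18.5 library, and those named in Flnc and Clta when any 1 of the 4 was left out.

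Of 16 fibrillar and network collagens 10 rose, 0 fell and 6 were not called, with 8 that rose with size factors or without the second E18.5 library, and the median was 1.21. Col1a1 and Col1a2, the chains of type I collagen, stood at 70.6 and 67.1 FPKM at E18.5 and 354 and 365 FPKM at P3 and at 71.6 and 67.5 FPKM at E18.5 and 350.0 and 359 FPKM at P3, log2 fold changes of 2.37 ± 0.18 and 2.33 ± 0.18. Both rose again to P7, whereas Col3a1, at 96.9 and 92.8 FPKM at E18.5 and 118 and 128 FPKM at P3, was not called at P3 and rose from P3 to P7 by 2.35. Of 23 matrix glycoproteins and proteoglycans 14 rose and 4 fell (median 1.302). Fn1, fibronectin, went from 84.8 and 81.5 to 554 and 661 FPKM, Bgn, biglycan, from 65.9 and 65.1 to 643 and 832 FPKM, and Tnc, tenascin C, from 10.98 and 3.41 to 59.1 and 76.1 FPKM. The 4 that fell were Eln, elastin (−2.15), Sparcl1, a matrix protein of vessels and muscle (−3.55), Has1, a hyaluronan synthase (−2.32), and Fmod, fibromodulin (−1.47). Of 17 genes of matrix turnover and crosslinking 12 rose and 0 fell, with a median of 1.99, the highest of the 46 lists with a tested member. Loxl1, a crosslinking oxidase, went from 9.099 and 9.26 to 139 and 157 FPKM, and Timp1, a protease inhibitor, from 24.3 and 18.1 to 257 and 284 FPKM. The summed fibroblast markers were also higher in both P3 libraries.

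**Figure D5:**
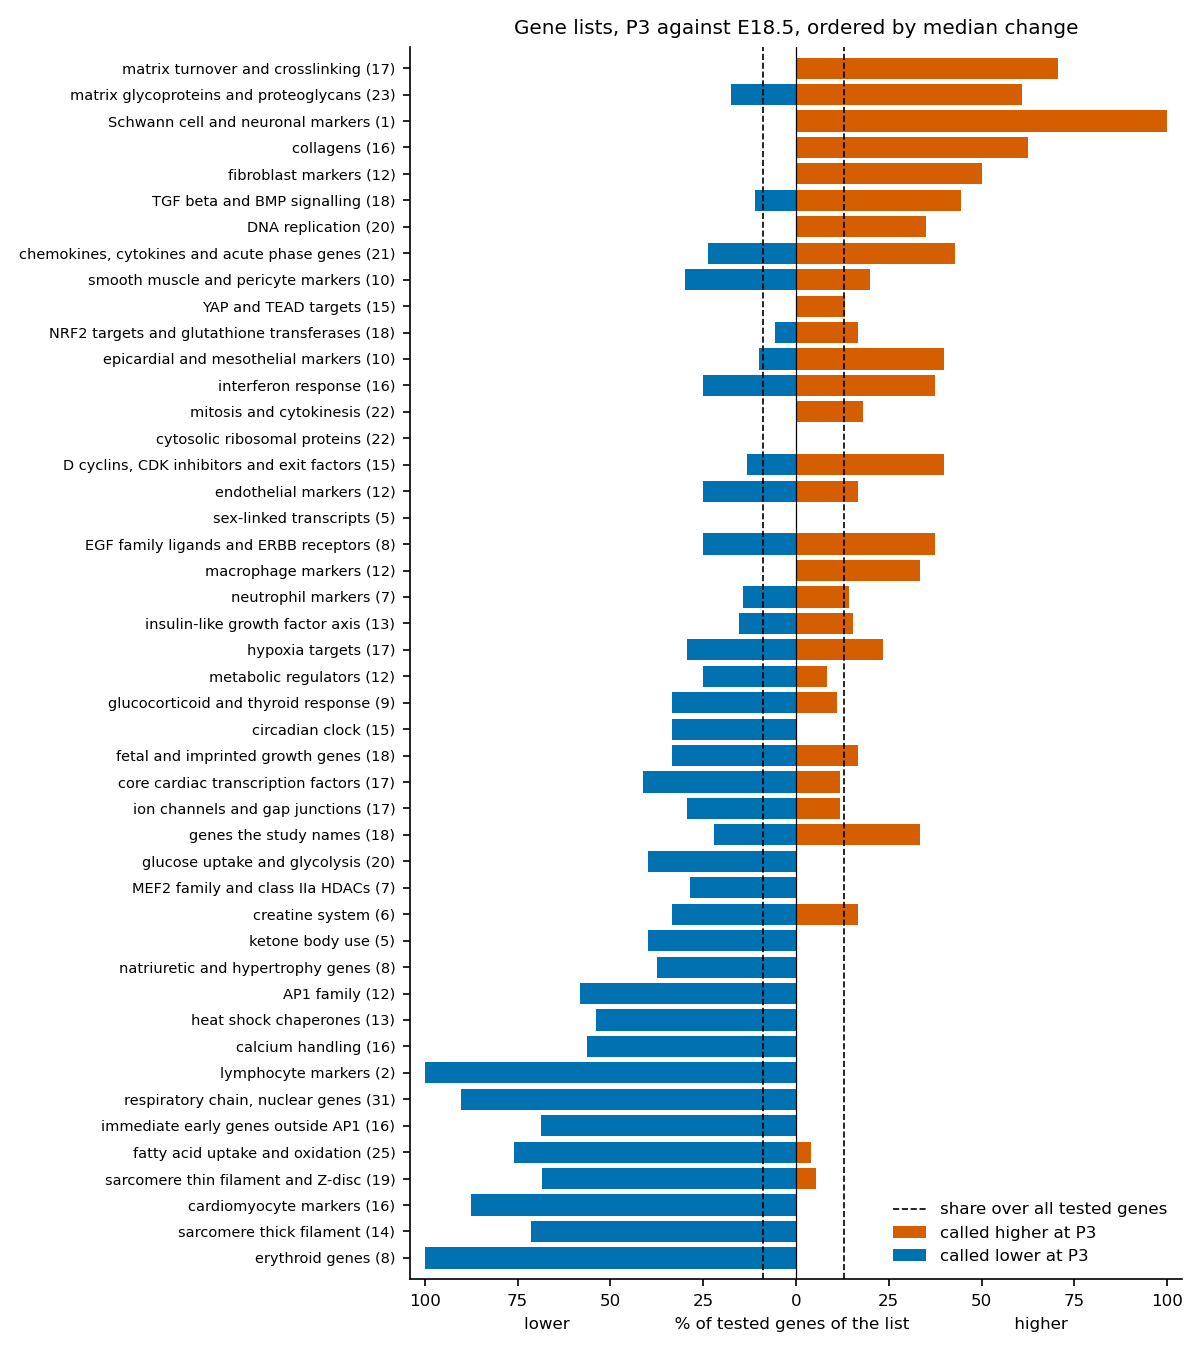
Percent of the tested genes of each list that were called higher (right, orange) or lower (left, blue) at P3 than at E18.5, for the 46 lists with a tested member, ordered by median log2 fold change, with the number tested behind each name. The dashed lines mark the 13% higher and 8.88% lower over all tested genes.

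Of 12 fibroblast markers 6 rose and 0 fell, among them Pdgfra, from 1.402 and 1.65 to 33.9 and 37.3 FPKM, and Dcn, decorin, from 85.5 and 84.5 to 489 and 481 FPKM, while Postn and Gsn were not called (0.17 and −0.91). Of 10 markers of smooth muscle and pericytes 2 rose, Tagln, an actin-binding protein, from 15.5 and 18.9 to 320.0 and 355 FPKM and Pdgfrb from 4.92 and 3.15 to 36.9 and 48.1 FPKM. Cnn1, Rgs5 and Abcc9 of the same list fell (−1.78, −1.54 and −1.27), so the list did not move together. Of 12 endothelial markers 3 fell, Cldn5, a tight junction protein, Fabp4 and Kdr, a VEGF receptor (−3.94, −2.695 and −1.73), and Egfl7 and Emcn rose (1.44 and 1.59). The endothelial genes Pecam1 and Cdh5 were not called (0.06 and 0.35), and the median of the list was 0.19 as deposited and −0.02 with size factors. Among 12 macrophage markers Lyz2, lysozyme, Ctss, Adgre1 and Cd68 rose, Lyz2 from 9.45 and 10.3 to 135 and 113 FPKM, and C1qa, C1qb and C1qc were not called, at −0.401, −0.903 and −0.14. With size factors 2 macrophage markers rose and 2 fell.

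The smaller marker lists gave single genes. Of 10 epicardial and mesothelial markers Lrrn4, Upk1b, Aldh1a2 and Wt1 rose (3.29, 2.36, 2.18 and 1.11) and Krt19 fell (−1.79). Of 7 neutrophil markers Mmp8 rose (2.04), and S100a8 and S100a9 were not called. Retnlg fell, from 2.18 and 2.33 FPKM to a listed 0 in both P3 libraries. Mmp8 was under 1 FPKM in both E18.5 libraries and Retnlg in every postnatal library. Both were thus tested only through the side where they are high. Only 2 of 10 lymphocyte markers were tested, Cd79a and Cd79b of B cells, at 1.74 and 1.600 and 1.79 and 1.31 FPKM at E18.5 and under 1 FPKM in every later library, so they entered the test only through the group where they are high. Of the Schwann cell and neuronal markers 1 was tested, Mbp, and it rose by 1.22. Of 5 sex-linked transcripts 0 were called by limma, with a median of 0.01, and 2 of them had an unadjusted p under 0.05 and 0 were called by limma-voom.

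Chemokines, cytokines and acute phase genes moved in both directions, with 9 of 21 that rose and 5 that fell. Beside Saa3 and Cxcl5, those that rose were Lcn2, an iron-trapping acute phase protein, from 3.19 and 4.32 to 70.5 and 89.8 FPKM, Cxcl12, Csf1, the growth factor of macrophages, Ccl7, Il6, Ccl9 and Ccl2. Csf1 went from 45.3 and 27.5 to 226 and 253 FPKM and Cxcl12 from 7.51 and 8.89 to 91.9 and 77.99 FPKM. Those that fell were Cxcl10, from 195 and 172 to 7.95 and 6.08 FPKM, Cxcl2, from 62.3 and 79.9 to 3.99 and 4.11 FPKM, Il1b, Tnf and Cxcl1. All 5 of these rose from P3 to P7, Cxcl10 by 4.26 and Cxcl2 by 4.08. Of 16 interferon response genes 6 rose and 4 fell. Bst2, which tethers virus particles, rose by 3.19 and Ifitm3, a membrane protein against virus entry, by 2.501, while Rsad2, Mx1, Gbp2 and Irf1 fell (−2.86, −2.15, −1.802 and −1.08). Rsad2 and Gbp2 were higher again at P7 than at P3.

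AP1 factors are dimers of Fos, Jun and Atf proteins that respond to growth factors and stress. Of 12 genes of the family 7 fell, 0 rose and 5 were not called (median −1.06). Fos stood at 160.3 and 182 FPKM at E18.5 and 5.22 and 6.95 FPKM at P3, Atf3 at 142 and 205 FPKM at E18.5 and 8.14 and 6.78 FPKM at P3 and Jun at 111 and 202 FPKM at E18.5 and 24.9 and 30.7 FPKM at P3, log2 fold changes of −4.61 ± 0.30, −4.35 ± 0.21 and −2.395 ± 0.25. Junb, at 169 and 193 FPKM at E18.5 and 73.5 and 97.9 FPKM at P3, fell by 1.08 and rose again to P7, and Fosl1 and Fosl2 were not called (0.59 and 0.38). Of 16 other immediate early genes 11 fell and 0 rose (median −1.51), among them Gadd45b, a stress sensor (−3.44), Nr4a1, an orphan nuclear receptor (−2.93), and Egr1 (−2.22). Of 13 heat shock chaperones 7 fell and 0 rose, and beside Hspa1a and Hspa1b these were Hspb1, Hspb7, Hspa5, Cryab and Dnajb1, from −2.35 for Hspb1 to −1.09 for Dnajb1. The constitutive chaperones Hspa8 and Hsp90ab1 were not called (0.1005 and −0.08).

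Of 17 hypoxia targets 4 rose and 5 fell. Hif1a, the oxygen-regulated factor itself, Adm, adrenomedullin, and the collagen hydroxylases P4ha1 and P4ha2 rose (1.31, 2.09, 1.62 and 1.06). Pdk1, Bnip3, a mitophagy receptor, Ankrd37, Ndrg1 and Vegfa, the vascular growth factor, fell, Pdk1 from 43.5 and 52.9 to 8.12 and 8.56 FPKM and Vegfa from 95.9 and 93.4 to 36.4 and 44.2 FPKM. Without the second E18.5 library 3 of these targets were called lower. Of 18 targets of NRF2, the factor of the oxidant response, 3 rose and 1 fell: Nqo1 (3.296), Gsta3 (3.05) and Gstm1 (1.03) were higher and Gpx3 (−1.81) was lower. These counts lay near the 13% higher and 8.88% lower over all tested genes, so the list as a whole did not stand out. Hmox1, Gclc and Gclm were not called. Gsta3 was under 1 FPKM in both E18.5 libraries and was tested only through its postnatal level. Of 9 genes of glucocorticoid and thyroid response Hsd11b1, which regenerates active glucocorticoid, rose from 0.169 and 1.73 to 30.9 and 29.6 FPKM, and Tsc22d3, Per1 and Thra, the main thyroid receptor of heart, fell (−2.04, −1.45 and −1.19). Of 15 clock genes 5 fell and 0 rose, the repressors Per1, Per2, Cry1 and Nr1d1 and the activator Npas2, while Arntl, Clock and Dbp were not called (−0.38, 0.24 and 0.29). The hours of collection are not given in the labels.

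Of 20 genes of DNA synthesis 7 rose, 0 fell and 13 were not called (median 0.72), or 10 with TPM and 5 with size factors. They were Tyms, thymidylate synthase, from 3.92 and 4.04 to 23.6 and 22.1 FPKM, Mcm2, Mcm3, Mcm4 and Mcm5 of the replicative helicase, Pola1 and Rrm1. Pcna, the sliding clamp, was not called, at 124 and 138 FPKM at E18.5 and 154 and 132 FPKM at P3. Of 22 genes of mitosis and cytokinesis 4 rose and 0 fell, Anln, Plk1, Cdk1 and Tpx2, by 1.39, 1.34, 1.17 and 1.17, and 2 rose with size factors. The share that rose was not far from the 13% over all tested genes. Mki67, the proliferation marker, stood at 15.04 and 18.5 FPKM at E18.5 and 17.6 and 19.1 FPKM at P3 and was not called. Among 15 cyclin, CDK inhibitor and exit genes 6 rose and 2 fell. Ccnd1, cyclin D1, went from 11.7 and 9.07 to 53.9 and 60.3 FPKM and Cdkn2a from 0.215 and 0.336 to 7.11 and 6.88 FPKM, and Cdk4, Cdk6, Cdkn2b and Meis2 also rose. The inhibitors Cdkn1a and Cdkn1c fell (−1.25 and −1.59). Cdkn2a was under 1 FPKM in both E18.5 libraries and was tested only through its postnatal level. The cell type in which these transcripts lay cannot be told apart in bulk RNA.

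Among 18 fetal and imprinted growth genes 6 fell and 3 rose. Igf2, the fetal growth factor, stood at 102 and 309 FPKM at E18.5 and 44.3 and 32.2 FPKM at P3, and H19, the noncoding RNA of the same imprinted domain, at 577 and 611 FPKM at E18.5 and 119 and 137 FPKM at P3, log2 fold changes of −2.204 ± 0.51 and −2.21 ± 0.26. Dlk1, Plagl1, Cdkn1c and Zim1 also fell. Hmga2, a chromatin protein of embryonic cells, rose from 6.32 and 2.04 to 82.4 and 84.4 FPKM, with Hmga1 (1.91) and Ndn (1.31). In the insulin-like growth factor axis 2 of 13 rose and 2 fell, near the 13% and 8.88% over all tested genes. Beside Igf2 the ones called were the binding proteins Igfbp7 (3.695), Igfbp4 (1.23) and Igfbp5 (−3.12). Igf1 and Igf1r were not called (0.98 and 0.51). Of 22 cytosolic ribosomal protein genes 0 were called by limma or by limma-voom, although 10 had an unadjusted p under 0.05, and their median was 0.25.

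Of 18 genes of TGF beta and BMP signalling 8 rose and 2 fell, and 5 rose without the second E18.5 library. Tgfb3, Bmp4, Inhba, a subunit of activin, Fst, which binds activin, Tgfbr2 and the BMP targets Smad6, Id1 and Id2 rose, and Bmp10, a factor made by cardiomyocytes, and Bmp2 fell, from 5.53 and 7.25 to 1.19 and 0.371 FPKM for Bmp10. Of 8 EGF ligands and receptors Nrg1, neuregulin, went from 1.602 and 1.22 to 22.7 and 24.2 FPKM. Egfr and Ereg rose (1.96 and 2.07) while Areg and Hbegf fell (−2.37 and −1.04). Egfr was under 1 FPKM in both E18.5 libraries and Areg in every postnatal library. Each was thus tested only through the side where it is high. Of 15 YAP and TEAD targets 2 rose and 0 fell, and the share that rose was near the 13% over all tested genes. Axl, a receptor kinase, went from 16.04 and 11.9 to 165 and 177 FPKM and Crim1 rose by 2.22. The common target genes Ccn1 and Ccn2 were not called (0.67 and 0.995), and 5 of the list rose with TPM and 4 without the second E18.5 library. Of 18 genes that the study names 6 rose, Csf1, Dcn, Ereg, Gstm1, Timp3 and Trim72, and 4 fell, Atf3, Junb, Pfkm and Tnnt2. The other 8 were not called by limma on FPKM, whereas the study tested read counts with edgeR, so its calls can differ from these. The study named these 18 genes on libraries of this series, apart from cell type markers such as Dcn, so their counts are no independent evidence of direction. It gave Dcn as a fibroblast marker not expressed in cardiomyocytes, with a promoter not accessible there. Dcn was nevertheless present in the RNA at both time points here and rose. Fewer of the falls were called without the second E18.5 library.

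Accessibility of chromatin was read from the peak lists of ATAC-seq, which marks DNA open to a transposase, in 2 libraries each at E18.5 and P3. The E18.5 lists had 13149 and 14910 peaks and the P3 lists 95257 and 52040. Within 1 kb of the start of the most abundant transcript, 25.5% of the genes called higher had a peak in both P3 and in neither E18.5 library, beside 11.04% of genes called lower, 13.7% of genes not called and 15% of all tested. A peak in both E18.5 libraries and in neither P3 library was found for 12 genes (0.0858% of those tested), and all 12 were called lower. They included Actc1, Ttn, the giant spring of the sarcomere, Csrp3, Trim55, a ligase of the M line, Ckm, Cox6a2, Cpt1b, Fxyd1, a regulator of the sodium pump, Cacna1h and Nkx2-5, beside Ybx2 and a gene with a numbered symbol. Ttn went from 15.5 and 19.6 to 2.75 and 4.41 FPKM and Trim55 from 93.6 and 115 to 35.2 and 28.9 FPKM. When each list was cut to its 13149 peaks of highest score, a gained peak lay at 2.76% of the genes called higher and 0.242% of those called lower, beside 1.07% of all tested. A lost peak then lay at 6.89% and 9.83%, beside 8.89% of genes not called and 8.71% of all tested, so lost peaks were not particular to genes called lower. With the full lists and a window of 2.5 kb, 12 genes lost a peak and 10 of them were called lower. No test was run on these shares, and the length of the lists moves with the time point.

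The 250 bases before the RefSeq start (GRCm38.p6) were searched on both strands for 6 motifs in 10073 tested genes with a matching symbol. The AP1 motif TGAGTCA was found in 4.86% of promoters of genes called higher, 4.44% of those called lower, 3.89% of those not called, 4.07% of those tested and 5.16% of all 27025 promoters. The MEF2 motif was found in 1.40% of promoters of genes called higher and 4.56% of those called lower, beside 1.64% of those tested and 1.99% of all. The CArG box of SRF, which can overlap a MEF2 match, was found in 1.55% and 3.00%, beside 1.53% of those tested and 1.62% of all. The CRE TGACGTCA was found in 1.11% of those called higher and 3.60% of those called lower, beside 3.13% of those not called, 2.899% of those tested and 1.77% of all. The ERR motif TCAAGGTCA and the heat shock element GAANNTTCNNGAA, in either phase, were in under 1% of promoters in each group. Of the 12 thick filament and 16 thin filament genes with a promoter sequence, 4 each held a CArG box. The ERR motif was in 1 of the 12 thick filament genes and in 0 of 23 respiratory chain genes. The heat shock element was in 2 of 9 heat shock chaperone genes. A match describes letters in the window and is not evidence of binding.

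The promoters of the genes with the largest change or highest level that held an AP1 or CArG match are shown, 250 bases up to the start of each gene on its own strand, from RefSeq GRCm38.p6, with the match in capitals. Counted from the start, the AP1 match began at base −46 in Mmp3, at −44 in Mmp12 and, for the first of 2 matches, at −136 in S100a11, and the CArG match began at −47 in Actc1 and at −85 in Myl3.
Mmp3 (chr9:7445572-7445821, plus strand): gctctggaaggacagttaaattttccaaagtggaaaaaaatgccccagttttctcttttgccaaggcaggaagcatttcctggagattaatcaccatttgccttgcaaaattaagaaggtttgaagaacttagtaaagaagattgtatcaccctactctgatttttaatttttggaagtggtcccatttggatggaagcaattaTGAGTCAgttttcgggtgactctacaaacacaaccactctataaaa
Mmp12 (chr9:7347124-7347373, plus strand): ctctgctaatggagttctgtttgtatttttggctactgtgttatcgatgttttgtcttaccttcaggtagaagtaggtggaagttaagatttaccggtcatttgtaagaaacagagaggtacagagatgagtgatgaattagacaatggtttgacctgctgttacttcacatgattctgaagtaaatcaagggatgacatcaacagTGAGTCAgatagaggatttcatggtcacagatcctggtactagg
S100a11 (chr3:93520246-93520495, plus strand): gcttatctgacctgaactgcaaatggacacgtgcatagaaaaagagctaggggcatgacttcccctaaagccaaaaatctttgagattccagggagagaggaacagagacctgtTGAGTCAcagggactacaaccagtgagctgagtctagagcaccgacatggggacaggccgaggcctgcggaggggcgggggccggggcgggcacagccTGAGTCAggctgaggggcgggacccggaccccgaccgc
Actc1 (chr2:114052876-114053125, minus strand): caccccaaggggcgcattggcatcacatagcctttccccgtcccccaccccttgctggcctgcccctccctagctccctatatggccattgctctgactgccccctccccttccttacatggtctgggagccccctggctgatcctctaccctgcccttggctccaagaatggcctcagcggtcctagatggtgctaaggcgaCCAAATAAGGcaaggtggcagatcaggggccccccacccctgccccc
Myl3 (chr9:110763428-110763677, plus strand): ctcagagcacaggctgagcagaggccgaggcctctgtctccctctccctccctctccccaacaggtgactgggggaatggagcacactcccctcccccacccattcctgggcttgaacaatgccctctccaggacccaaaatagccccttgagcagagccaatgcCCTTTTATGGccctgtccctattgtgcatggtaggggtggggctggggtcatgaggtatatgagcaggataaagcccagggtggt

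Peaks of these 5 genes were sought within 1 kb of the start of the most abundant transcript. That start need not be the RefSeq start at which the printed bases end. Mmp3, Mmp12 and Myl3 had no peak there in any of the 4 ATAC libraries, although Mmp3 rose by 5.801 and Myl3 fell by 2.66 in RNA. S100a11 had a peak in all 4, and Actc1 in both E18.5 and neither P3 library. Of the 20 genes with the largest change and the 20 most abundant, S100a4, Col8a1, Prkar2b, S100a6 and Pfn1 gained a peak at P3 and Ckm and Actc1 lost one. With the same full lists 25.5% of all genes called higher gained a peak, so such a gain was common among them. Of all genes called lower, 0.967% lost one. With lists of equal length 2.76% of genes called higher gained a peak and 9.83% of those called lower lost one.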

How the data were processed

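Poly-A RNA of mouse left ventricular cardiomyocytes was sequenced by the authors with 150 bp reads in pairs. Per the submitters' processing notes, reads were aligned with HISAT2 2.1.0 and transcripts estimated with StringTie 1.3.5 on mm10. The deposited files give FPKM and TPM per transcript, as normalized by the authors, and coverage, a read depth averaged over bases and deposited without normalization. For each ATAC-seq library the authors deposited a list of MACS2 peaks on mm10, and its score, used to rank peaks, is the authors' rounded multiple of the −log10 q value. The authors tested read counts with edgeR. The values here are FPKM, so log2(FPKM + 1) was fitted with limma 3.58.1 (lmFit and eBayes with a mean-variance trend) in R 4.3.3, with two-sided tests, with p adjusted by Benjamini-Hochberg over the 13979 genes with at least 1 FPKM in 2 libraries. All 8 mouse RNA libraries were in 1 fit with a mean per time point. Calls needed an adjusted p under 0.05 together with a log2 fold change beyond 1 in either direction. Fold changes on this scale understate the change of low genes. Of the genes tested, 916 were under 1 FPKM in both E18.5 libraries (278 called) and 335 in every postnatal library (198 called), and these entered the test only through the side where they were higher.

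Shares of transcripts were fitted with limma on the arcsine of their square root, for genes of at least 5 FPKM in every library and transcripts of at least 10% in 2 libraries. Both fits were tested on simulated data. Depth was worked out from coverage and FPKM. Promoters were the 250 bases before the start of 10073 of 13969 tested symbols in RefSeq GRCm38.p6, counted with Python 3.11.15. No protein sequence was used.

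Named genes are the 10 largest rises and falls among called genes whose libraries do not overlap, the 10 most abundant called genes in each direction, members of 47 gene lists where the list is reported, and the 6 transcripts with the largest change of share. The 250 called genes with a numbered or Rik symbol were counted and not named, and some genes that meet these rules are not reported here. The comparison, the lists and the members were chosen with earlier results of these data known. The alternatives were another pseudocount, other filters, TPM, size factors, totals without erythroid genes, limma-voom on reads estimated from coverage, a replicate block, a fit of 4 libraries and each library left out in turn. HiChIP, rat and P1 and P7 ATAC-seq libraries were not used here.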

Additional observations from a re-analysis of the deposited data

Results flagged for a closer look

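The change from E18.5 to P3 was set against the change from P3 to P7 in the same limma fit, which tests the difference between the P7 and the P3 effect directly. Both contrasts share the P3 libraries. Of the genes called higher at P3, 21 (1.16%) were called lower at P7 than at P3, beside 2.2% of all tested genes, and 49 (2.701%) were called higher again. Of the genes called lower at P3, 34 (2.74%) were called higher at P7 than at P3, beside 1.35% of all tested genes, and 155 (12.5%) were called lower again. Chemokines and cytokines were among the genes that turned. Cxcl10 stood at 195 and 172 FPKM at E18.5 and 7.95 and 6.08 FPKM at P3 and at 104 and 219 FPKM at P7, a rise from P3 to P7 of 4.26 on the log2 scale (adjusted p = 0.00397). From P3 to P7 Cxcl2 rose by 4.08, Cxcl1 by 2.75, Tnf by 1.85 and Il1b by 1.19, all after a fall from E18.5 to P3. The interferon response genes Gbp2 and Rsad2 turned in the same way, by 2.13 and 1.61, as did the hypoxia targets Ndrg1 and Ankrd37, by 2.21 and 1.51. Eln rose by 1.99, Fabp4 by 1.303, Junb by 1.08 and Igfbp5 by 1.01 after their falls. In the opposite direction, the muscle membrane repair gene Trim72 changed from P3 to P7 by −2.398, Nrg1 by −1.502 and Hand2 by −1.001, after a rise from E18.5 to P3.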

How the results depend on the processing

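Of the values over all genes, the number called higher moved most with TPM, to 3068, and the number called lower most with a mean FPKM of at least 5, to 694, where fewer genes were tested. The share of called genes that were higher was 74.4% with TPM and 45.7% with size factors. Leaving out 1 of the 4 libraries gave 1692 to 2049 genes higher and 1126 to 1335 lower, and the most calls, 524 of 3055, were lost without the second E18.5 library. No called gene turned in direction under any of 14 settings. Of 234 called genes in the text 50 lost their call in at least 1 setting, and 11 of 50 uncalled genes gained one. The deviations of same-numbered E18.5 and P3 libraries correlated at −0.0964, and those of the other pairs of time points at −0.0886 to 0.171. With 2 libraries per time point such a value cannot decide whether the replicate numbers pair the samples. With the replicate block 1822 genes were higher and 1240 lower (59.5% higher), and 1848 and 1281 in a fit of 4 libraries, chosen after seeing the data. The same block left 16 called transcripts of 99, and leaving out 1 library left 9 to 84. Of promoters of genes called higher, 2.76% gained a peak with equal numbers of peaks, beside 1.07% of all tested. With the upper 0.5 of each list 28.4% gained one, beside 20.2% of all tested. Of genes called lower 0.242% gained a peak with equal numbers. Leaving out 1 ATAC library, also chosen after seeing the data, gave 25.9% to 35.4% for genes called higher and 11.1% to 19.7% for those called lower. The cause of these shifts was not tested. With 2 libraries per group the spread rests on few degrees of freedom, and FPKM gives no count behind a low value.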
